A study of Mus musculus with 768 samples.

Results

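Cells of mouse cochlear organoids that carried few or no transcripts of dividing cells were compared between culture day 7 and culture day 1. A cell was taken as non-cycling when, after filtering, it had a rounded count of at least 1 in 0 or 1 of 6 genes of mitosis and the late cell cycle (Mki67, Top2a, Cdk1, Birc5, Ccnb2 and Tpx2). The rule thus used measured values of these 6 genes, and 275 of the 711 retained cells met it. On Day 1 these were 124 of 182 retained cells (of 192 deposited), on Day 3 they were 57 of 228 (of 255), and on Day 7 they were 94 of 301 (of 321). The comparison asks which of the changes between Day 1 and Day 7 are seen when the share of dividing cells is held low on both days.

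The cells came from the greater epithelial ridge of the cochlea of mice on postnatal day 2. Per the labels the mice carried Fgfr3-CreERT2, Ai14-tdTomato and Sox2-GFP, an inducible Cre driven from Fgfr3, a Cre-dependent red reporter and a green reporter of Sox2. The labels used here do not state the sorting gate, whether Cre was induced, or how many animals a culture pooled. All groups were sorted by flow cytometry and grown in 1 medium, and the labels give the day as the one difference between the groups. The medium held EGF, FGF2, IGF1, CHIR99021 (an inhibitor of GSK3 that activates Wnt signalling), valproic acid (an inhibitor of histone deacetylases), 2-phospho-L-ascorbic acid and 616452, an inhibitor of the TGFβ receptor. Single cells were picked by hand after trypsin, and each was sequenced by SmartSeq2, which amplifies full-length cDNA and adds no molecular identifiers. The replicate was the culture: 3 on Day 1, 3 on Day 3 and 5 on Day 7. The labels do not say whether cultures came from separate animals, so p-values measure the spread between these cultures.

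The greater epithelial ridge lies on the inner side of the developing cochlear duct, makes much of the tectorial membrane, and holds cells that can enter division and form organoids when taken from the newborn ear. Cells leave and enter the cycle under the control of cyclins, of cyclin-dependent kinase inhibitors such as p57 (Cdkn1c), and of signals that include Notch, BMP, Wnt and retinoic acid. ID proteins bind and block basic helix-loop-helix transcription factors and are classical targets of BMP signals. HES and HEY proteins are repressors that respond to Notch.

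The number of non-cycling cells was uneven. It was 28, 68 and 28 in the Day 1 cultures 1 to 3, and 8, 16, 8, 15 and 47 in the Day 7 cultures 1 to 5, so that culture 5 gave 47 of the 94 Day 7 cells. Non-cycling cells made up 65.7% ± 13.1 of the retained cells on Day 1 (SD, n = 3), 25.6% ± 9.57 on Day 3 (n = 3) and 31.4% ± 21.2 on Day 7 (n = 5). Day 7 culture 5, with 62.7% (exact 95% Clopper-Pearson interval 50.7 to 73.6%), lay within the Day 1 range of 52.8 to 79.1%, whereas the other 4 lay between 11.1 and 43.2%. Inside the threshold, 38 Day 1 and 46 Day 7 cells had a count in exactly 1 of the 6 genes. Just outside it, 17 and 20 cells had a count in 2.

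**Figure D1:**
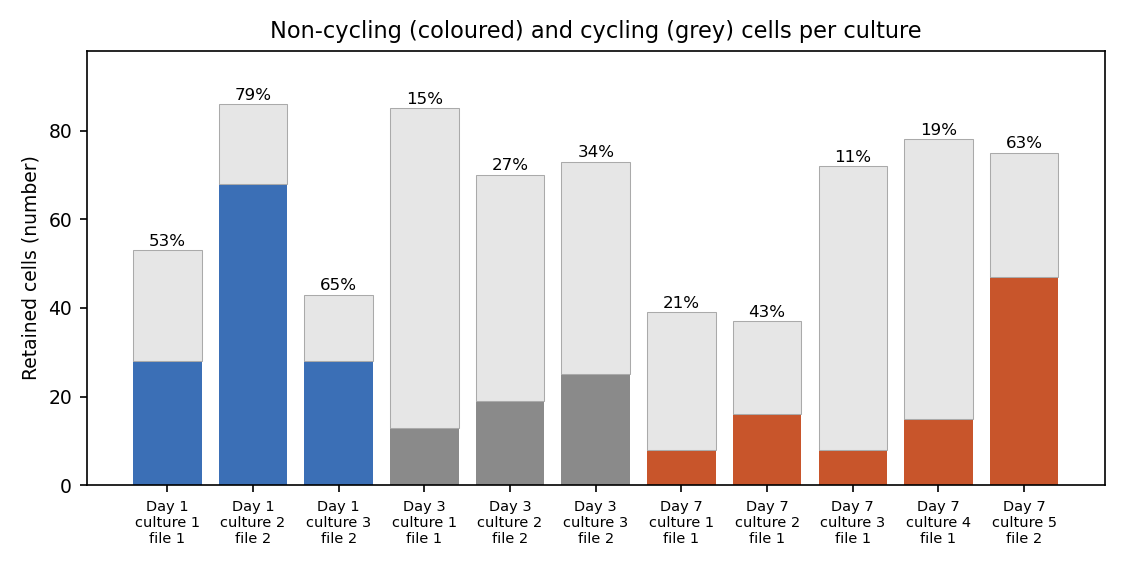
Retained cells per culture (y axis, number of cells), with non-cycling cells coloured by day and the other cells in grey. The percentage above a bar is the non-cycling share, from 53 to 79% on Day 1 and from 11 to 63% on Day 7, where culture 5 holds 47 cells.

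Summed over its non-cycling cells, a culture had between 4961097 and 52681889 reads on genes. Thinned to 200000 reads, the median cell had a read in 6062.5 to 6306 genes in the Day 1 cultures and in 4977 to 5937.5 genes in the Day 7 cultures. Mitochondrial genes took a median of 2.78 to 3.92% of the reads on Day 1 and 4.03 to 6.83% on Day 7, and ribosomal protein genes 1.87 to 2.28% and 2.81 to 3.53%. The thinned gene number, the mitochondrial share and the ribosomal share did not overlap between Day 1 and Day 7, whereas the summed reads did. The part of these measures in the results below was not tested. The deposited tables are in 2 files. Day 1 culture 1 and Day 7 cultures 1 to 4 are in the first, and Day 1 cultures 2 and 3 and Day 7 culture 5 in the second.

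The cells were epithelial on both days. Epcam, an adhesion protein of epithelia, had a count in 124 of 124 Day 1 cells and 93 of 94 Day 7 cells. Tecta, which encodes α-tectorin of the tectorial membrane, had one in 124 and 94. Sox2 stood at 22.2 CPM ± 0.571 (counts scaled to 1000000 summed reads, SD, n = 3) on Day 1 and 12.4 CPM ± 6.74 (n = 5) on Day 7, and its groups overlapped. Fgfr3, whose promoter drives the Cre, was at 0 to 2.49 CPM on Day 1 and 0 to 8.62 CPM on Day 7. Markers of other cell types were summed within each Day 1 and Day 7 culture. The 5 red cell markers summed to at most 0.968 CPM and the 4 globins had no read. The 8 macrophage markers summed to at most 4.86 CPM, with Aif1 at 0, the 6 endothelial markers to at most 4.48 CPM, with Pecam1, Kdr, Emcn and Cldn5 at 0, and the 6 melanocyte markers to at most 9.56 CPM, with Dct, Tyr, Tyrp1 and Mlana at 0. The 7 glia markers summed to 61.9 to 92.8 CPM on Day 1 and 79.6 to 131 CPM on Day 7, with Foxd3 at 0. The 8 neuron markers summed to 55.1 to 89.5 CPM and 5.10 to 32.4 CPM, with Elavl3 at 0. The 12 mesenchyme markers summed to 839 to 1107 CPM and 488 to 2226 CPM, nearly all of it Lum, at 990 CPM ± 159 (n = 3) and 1287 CPM ± 773 (n = 5), while Col3a1, Twist2 and Tbx18 had no read. Among the most abundant markers, Sox10 (glia, also a gene of otic epithelium) was at 31.1 to 57.9 CPM and 57.8 to 90.1 CPM and Erbb3 at 12.2 to 21.7 CPM and 1.66 to 26.1 CPM. Col1a2 (mesenchyme) was at 4.45 to 18.8 CPM and at most 0.0836 CPM, Csf1r (macrophage) at 0.182 to 4.50 CPM and at most 0.0854 CPM, Tek (endothelium) at most 4.48 and 2.84 CPM, and Pmel and Kcnj10 (melanocyte) at 3.45 to 7.11 CPM and 1.90 to 6.11 CPM on Day 1 and at most 0.0854 and 2.87 CPM on Day 7. Of all these markers of other cell types only Nefl, of the neuron list, was called, and it fell, as given below.

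Among 14600 genes tested, 18 rose (0.123%) and 24 fell (0.164%) from Day 1 to Day 7 at an adjusted p under 0.05, together 0.288%. At an unadjusted p under 0.05 the test marked 584 genes as higher (4%) and 1058 as lower (7.25%). Counts of list members at that threshold, given below, are to be read beside these shares. In all 42 called genes the Day 1 and Day 7 cultures did not overlap, as in 10.7% of the genes tested. The same test on all retained cells called 1241 of 17466 genes (7.11%). That fit had a smaller error: over the genes tested in non-cycling cells the median standard error (SE) of the log2 fold change was 0.77 with non-cycling cells and 0.38 with all retained cells. The shorter list is therefore no measure of how many of the changes were free of dividing cells. Both fits share these 275 cells, so their values are given side by side only.

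The genes that rose included Id1, Id3 and Bmp7 of the BMP and Id list and Heyl of the Notch list. Id1, an inhibitor of basic helix-loop-helix factors (chromosome 2), was at 6.87, 3.11 and 2.84 CPM in the Day 1 cultures and at 197, 129, 39.8, 49.6 and 193 CPM in the Day 7 cultures. Every Day 7 culture was thus above every Day 1 culture, with cultures 3 and 4 the lowest of Day 7. The fitted log2 fold change was 4.83 (SE 0.76, adjusted p = 0.0158), beside 4.42 (SE 0.52) in all retained cells. Cells with a count of Id1 went from 16 of 124 to 78 of 94. Whether more cells carried the transcript or each carried more of it cannot be told apart where a cell's few molecules may be missed.

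Id3, of the same family, was at 29.2, 33.3 and 25.2 CPM on Day 1 and at 1200, 511, 153, 88.1 and 587 CPM on Day 7. The groups did not overlap, and Day 7 culture 1 was the highest. Its log2 fold change was 4.12 (SE 0.77, adjusted p = 0.0462). Heyl, a HES and HEY family repressor, was at 1.90, 10.7 and 22.9 CPM on Day 1 and at 425, 547, 143, 359 and 161 CPM on Day 7 (log2 fold change 4.79, SE 0.75, adjusted p = 0.0158). The 3 Day 3 cultures, at 10.3 to 14.8 CPM, were within the Day 1 range. Bmp7, a BMP ligand, rose from 111 CPM ± 41.5 (n = 3) to 297 CPM ± 39.3 (n = 5) (log2 fold change 1.42, SE 0.27, adjusted p = 0.0475).

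Of the 18 tested members of the BMP and Id list, 3 rose (Id1, Id3 and Bmp7) and none fell. At an unadjusted p under 0.05, 5 were higher and 4 lower, and the list's median log2 fold change was -0.50. The antagonist Fst, named here after its values were seen, was at 65.8 to 203 CPM on Day 1 and 0 to 12.0 CPM on Day 7, with an adjusted p of 0.117. Of the 15 tested Notch members only Heyl was called, while 5 were higher and 2 lower at an unadjusted p under 0.05, and the median was 0.80 against -0.03 over all genes tested. Without a single culture, some of these calls were lost: Id1 without Day 1 culture 1, 2 or 3 (adjusted p up to 0.134), Heyl without Day 1 culture 2 (0.124), Id3 without any Day 1 culture, Day 3 culture 2 or 3 or Day 7 culture 2 or 5 (0.296), and Bmp7 without 10 of the 11 cultures, all but Day 1 culture 1 (0.338).

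Of the retinoid genes, Aldh1a3 and Rarb rose. Retinoic acid is made by aldehyde dehydrogenases such as Aldh1a3 and acts through nuclear receptors such as Rarb, whose own promoter carries a classical response element. That promoter and the promoter of Cyp26a1, an enzyme that degrades retinoic acid, are shown because they were the only windows of the retinoid list that held the motif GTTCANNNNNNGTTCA, a direct repeat spaced as in such elements. The motif was searched on both strands in the 250 bases before each RefSeq start site (GRCm38.p6). It was found in 22 of 32851 windows (0.0670%), and in 2 of the 16 retinoid genes with a window. Capitals mark the motif, which begins 52 bases before the start site in Rarb (chr14:16575477-16575726, minus strand) and 32 bases before it in Cyp26a1 (chr19:37697558-37697807, plus strand), where it is on the opposite strand.
Rarb: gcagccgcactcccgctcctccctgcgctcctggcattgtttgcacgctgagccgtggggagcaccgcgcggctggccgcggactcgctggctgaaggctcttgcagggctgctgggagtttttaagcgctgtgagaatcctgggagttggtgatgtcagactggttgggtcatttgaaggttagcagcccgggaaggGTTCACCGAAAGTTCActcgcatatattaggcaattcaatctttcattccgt
Cyp26a1: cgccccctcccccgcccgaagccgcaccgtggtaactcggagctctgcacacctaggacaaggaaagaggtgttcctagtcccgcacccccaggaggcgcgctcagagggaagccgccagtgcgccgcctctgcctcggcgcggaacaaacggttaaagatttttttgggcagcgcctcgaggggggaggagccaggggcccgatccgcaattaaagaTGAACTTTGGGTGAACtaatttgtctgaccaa

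Rarb was at 3.73, 3.75 and 0.303 CPM on Day 1 and at 72.2, 57.9, 127, 63.1 and 69.4 CPM on Day 7. Its groups did not overlap, and Day 7 culture 3 stood above the other 4. The log2 fold change was 4.89 (SE 0.92, adjusted p = 0.0462), and cells with a count went from 15 of 124 to 60 of 94. The call was the more fragile of the 2 in this group, since it was lost without 9 of the 11 cultures, namely all but Day 3 cultures 2 and 3 (adjusted p up to 0.190). Aldh1a3 was at 109, 117 and 111 CPM on Day 1 and at 486, 562, 754, 1006 and 318 CPM on Day 7. Culture 5 was the lowest of Day 7 and still above Day 1. Its log2 fold change was 2.48 (SE 0.37, adjusted p = 0.0127), and the call was lost without Day 1 culture 1, 2 or 3 (up to 0.103).

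Cyp26a1, in contrast, had 52 reads in all Day 1 cultures together and none on Day 7, and was too low to test. In all, 14 of the 20 retinoid genes were tested and 2 rose. At an unadjusted p under 0.05, 6 were higher and 2 lower. Among those, named after their values were seen, Stra6, the receptor that takes up retinol, was at 1.03 to 9.25 CPM on Day 1 and 8.21 to 239 CPM on Day 7 (adjusted p = 0.107). Cyp26b1, a second degrading enzyme, was at 32.5 to 41.3 CPM on Day 1 and 0 to 5.55 CPM on Day 7 (adjusted p = 0.196).

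Immediate early genes are switched on within minutes of growth factors or of handling. Of 22 tested, 4 rose (Egr1, Ier2, Fosb and Jun), none fell, and 12 were higher and 0 lower at an unadjusted p under 0.05, while 7 had a fold change below 0. The median log2 fold change of the list was 1.81 in non-cycling cells and 1.68 in all retained cells. Egr1, a zinc finger factor, was at 90.1, 256 and 160 CPM on Day 1 and at 675, 1063, 932, 850 and 917 CPM on Day 7, so that the lowest Day 7 culture was above the highest Day 1 culture. The log2 fold change was 2.40 (SE 0.32, adjusted p = 0.00609). Fosb, a partner in the AP-1 factor, was at 4.68, 4.86 and 4.24 CPM on Day 1 and at 44.3, 34.3, 53.0, 28.2 and 66.8 CPM on Day 7. It had a log2 fold change of 3.30 (SE 0.51, adjusted p = 0.0158).

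Ier2 rose from 67.6 CPM ± 32.9 (n = 3) to 321 CPM ± 61.5 (n = 5) and Jun from 206 CPM ± 82.3 to 703 CPM ± 196, with log2 fold changes of 2.25 (adjusted p = 0.0127) and 1.77 (0.0375). Arc, an activity-regulated gene outside the list, rose from 10.3 CPM ± 2.28 to 127 CPM ± 54.3 (log2 fold change 3.63, SE 0.63, adjusted p = 0.0293). Cyr61, a secreted matricellular protein and target of YAP, was at 191, 415 and 151 CPM on Day 1 and at 1561, 3861, 1314, 1977 and 3603 CPM on Day 7. Its log2 fold change was 3.29 (SE 0.53, adjusted p = 0.0187). It was the 1 called member of the 17 tested YAP and TEAD genes, whose median was 0.01. Organoids of all days were treated with trypsin before picking, and the time of that step was not given per culture, so its part in these levels was not tested. Egr1 and Ier2 lost their calls without Day 1 culture 3 (adjusted p up to 0.0735 and 0.115), Fosb without any Day 1 culture or Day 7 culture 5 (0.130), Cyr61 without Day 1 culture 1 or 3 (0.146), Arc without any Day 1 culture or Day 7 culture 2, 4 or 5 (0.196), and Jun without 9 of the 11 cultures (0.261).

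Fbln1 had the smallest adjusted p among the rises. It encodes fibulin-1, a glycoprotein of basement membranes and elastic fibres, and lies on chromosome 15 (85205949 to 85286535 in GRCm38). Its level was 5.75, 2.44 and 3.57 CPM on Day 1, 44.4 to 60.7 CPM on Day 3, and 256, 297, 59.7, 205 and 191 CPM on Day 7. Day 7 culture 3 was at the level of Day 3, and the other 4 were higher. The log2 fold change was 5.70 (SE 0.56, adjusted p = 0.000616), beside 5.19 (SE 0.43) in all retained cells. Cells with a count of Fbln1 went from 14 of 124 to 70 of 94, and the call held without each of the 11 cultures. It was the 1 called gene among 21 tested matrix and proteoglycan genes, whose median was -0.36.

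Gabrg3, a subunit of the GABA-A receptor, had the largest fitted rise (log2 fold change 9.24, SE 1.5, adjusted p = 0.0193), but it rested on 4 reads in all of Day 1 against 1755 on Day 7 and had a count in 25 of 94 Day 7 cells. Its 5 Day 7 cultures were at 70.3, 45.3, 18.9, 29.3 and 8.01 CPM. Ces1d, a carboxylesterase, rose from 4.51 CPM ± 3.29 (n = 3) to 78.5 CPM ± 60.6 (n = 5), and Kifc3, a minus-end directed kinesin, from 5.93 CPM ± 3.55 to 65.6 CPM ± 32.4. Their log2 fold changes were 4.13 (adjusted p = 0.0404) and 3.47 (0.0183). The 2 other genes that rose were Mab21l1 (log2 fold change 2.39) and Slc44a3 (1.39). Calls were lost for Gabrg3 without any Day 1 culture or Day 7 culture 1 or 2 (adjusted p up to 0.147), for Kifc3 without Day 1 culture 2 or 3 (0.131), for Mab21l1 and Ces1d without 9 and 10 of the 11 cultures (0.248 and 0.236), and for Slc44a3 without each of the 11 (0.337).

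**Figure D2:**
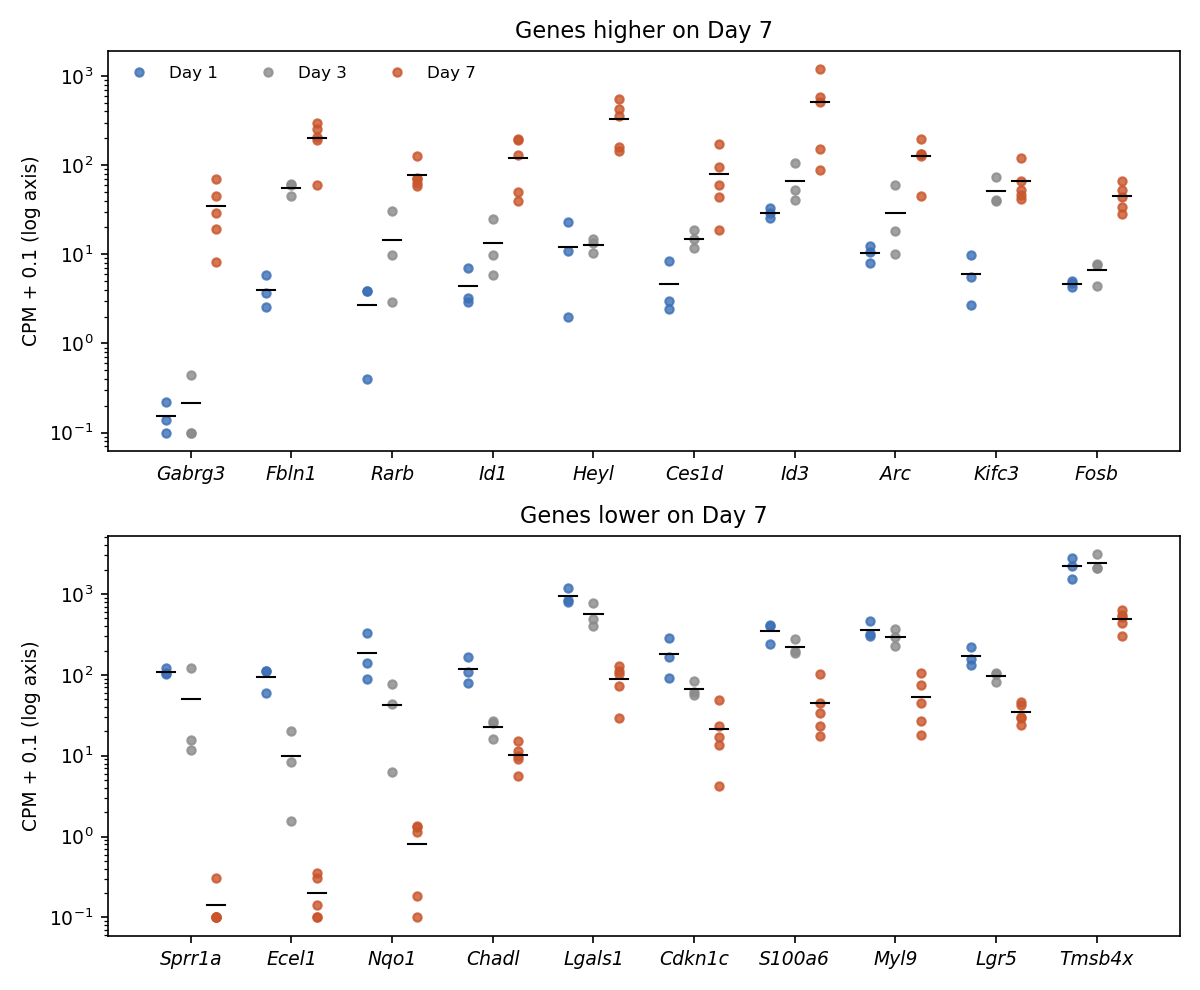
CPM + 0.1 (y axis, log scale) of the 10 genes with the largest rise (top) and the 10 with the largest fall (bottom) that met the naming rule; points are cultures and black lines are means of each day. Day 1 (blue) and Day 7 (orange) do not overlap for any of the 20, which the rule required, and Day 3 (grey) lies at the Day 1 level for Heyl (10.3 to 14.8 CPM) and Tmsb4x but nearer to Day 7 for Kifc3 and Chadl.

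Genes that fell included several that were nearly silent on Day 7. Sprr1a, a cornified envelope protein known from injured epithelium and regenerating neurons, was at 121, 101 and 105 CPM on Day 1. On Day 7 it was at 0, 0, 0.205, 0 and 0 CPM, a single read in all. The ratio of Day 1 to Day 7 per summed read was 8419, with a 95% counting interval of 1511 to 332575 that covers no spread between cultures. Sprr1a was never a gene of most cells: 28 of 124 Day 1 cells had a count, and the 10% of cells with the most held 97.3% of its reads. The adjusted p was 0.000616, and the call held without each culture.

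Ecel1, a membrane metalloprotease of neurons, was at 112, 58.8 and 112 CPM on Day 1 and at 0 to 0.251 CPM on Day 7. It had a count in 69 of 124 Day 1 cells and in 4 of 94 Day 7 cells (adjusted p = 0.000616). The ratio per summed read was 1055 (95% counting interval 484 to 2874). Nefl, the light neurofilament chain, was at 14.7, 2.77 and 21.4 CPM on Day 1, with a count in 13 of 124 cells. On Day 7 it had 1 read (adjusted p = 0.0475). Both are in a list of 11 early neural-type genes that earlier results on these cells had prompted, of which 9 were tested, 2 fell and 8 were lower at an unadjusted p under 0.05. That list is no independent evidence of its direction. Ecel1 kept its call without each culture, and Nefl lost it without 10 of the 11 (adjusted p up to 0.230).

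Nqo1, a quinone reductase induced by NRF2, was at 89.4, 141 and 330 CPM on Day 1 and at 0, 0.0854, 1.03, 1.25 and 1.20 CPM on Day 7. Day 3 lay between, at 6.24 to 77.3 CPM. Its log2 fold change was -7.91 (SE 0.93, adjusted p = 0.00179), beside -4.80 (SE 0.88) in all retained cells. Cldn1, a tight junction protein, took another course. It was at 9.39 to 14.3 CPM on Day 1, at 41.9 to 85.0 CPM on Day 3 and at 0 to 0.167 CPM on Day 7, with an adjusted p of 0.00126 for Day 7 against Day 1. Cldn1 had a count in 16 of 124 Day 1 cells and 2 of 94 Day 7 cells. It was the 1 called gene of 22 junction and keratin genes. Epcam (1257 to 1999 CPM on Day 1 and 784 to 1108 CPM on Day 7) and Cdh1, the epithelial cadherin (474 to 581 CPM and 77.8 to 233 CPM), had adjusted p-values of 0.178 and 0.0921. Nqo1 and Cldn1 kept their calls without each culture.

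Further genes with hardly a read on Day 7 were Anks1b, Srpx, Sv2c and Nrip3, with 1, 1, 1 and 4 reads there against 1535, 1181, 775 and 786 on Day 1. In the same order, 20, 27, 24 and 27 of the 124 Day 1 cells had a count. Vcam1, an adhesion protein, and the unnamed gene 3830417A13Rik had 303 and 319 reads on Day 1 and none on Day 7. Against 3 reads over all Day 7 cultures the ratios of Day 1 to Day 7 were 94.8 and 99.8. The lower 95% counting limits of the ratio, which also take in the error of the Day 1 reads, were 76.6 and 80.7. These limits cover no spread between cells, and on Day 1 Vcam1 had a count in 8 of 124 cells and 3830417A13Rik in 10. Both were higher on Day 3, where Vcam1 stood at 10.6 to 47.2 CPM against 2.96 to 3.87 CPM on Day 1. Adjusted p-values of these 6 genes ran from 0.0127 to 0.031, and each lost its call without at least 1 culture: Srpx without Day 1 culture 1 (0.0750), Nrip3 without Day 1 culture 1 or 3 or Day 7 culture 5 (0.0747), and the other 4 without 5 to 9 of the 11.

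Lgr5 was the called gene of the supporting cell list. It encodes a receptor for R-spondins, marks cochlear supporting cells that can divide in culture, and lies on chromosome 10. Its level was 159, 133 and 219 CPM on Day 1, 81.1 to 105 CPM on Day 3 and 42.5, 46.2, 23.6, 29.3 and 29.9 CPM on Day 7. The highest Day 7 culture was below the lowest Day 3 culture, and that below the lowest Day 1 culture. The log2 fold change was -2.31 (SE 0.28, adjusted p = 0.00239), close to the -2.39 (SE 0.30) of all retained cells, and the call held without each culture. Of 13 tested supporting cell genes, 5 were lower and 0 higher at an unadjusted p under 0.05, and the median was -1.0. Of the 12 tested Wnt targets none was called, and the median was 1.15. Nkd1, a feedback inhibitor of Wnt signals, was at 6.11 to 13.7 CPM on Day 1 and 26.9 to 79.2 CPM on Day 7 (adjusted p = 0.174). Znrf3 was at 82.0 to 97.4 CPM and 82.9 to 170 CPM.

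The genes that fell also included Tmsb4x, Lgals1, Chadl, S100a6, Myl9 and Sparc, while in the list of matrix and proteoglycan genes none fell. Tmsb4x, which binds actin monomers, was at 1543, 2246 and 2790 CPM on Day 1 and at 298, 431, 638, 522 and 552 CPM on Day 7, with a count in every cell of both days. Day 3 was at 2070 to 3138 CPM, within or above the Day 1 range. The log2 fold change was -2.17 (SE 0.27, adjusted p = 0.00249). Lgals1, a secreted galectin, was at 850, 1182 and 804 CPM on Day 1 and at 28.9, 102, 129, 73.6 and 110 CPM on Day 7 (log2 fold change -3.42, SE 0.39, adjusted p = 0.00147). Chadl, a leucine-rich repeat protein of cartilage matrix, was at 166, 109 and 79.2 CPM on Day 1 and at 5.52 to 15.1 CPM on Day 7 (log2 fold change -3.55, SE 0.39, adjusted p = 0.00126). These 3 calls held without each culture.

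S100a6, a calcium-binding protein, fell from 351 CPM ± 96.3 (n = 3) to 44.4 CPM ± 34.2 (n = 5) (log2 fold change -2.99, SE 0.46, adjusted p = 0.0158). Myl9, a regulatory light chain of myosin, fell from 361 CPM ± 86.8 to 53.7 CPM ± 36.1 (log2 fold change -2.74, SE 0.46, adjusted p = 0.0229). Sparc, a collagen-binding matrix protein, was at 2712, 3056 and 2917 CPM on Day 1, at 2594 to 2909 CPM on Day 3 and at 654, 993, 1320, 773 and 1525 CPM on Day 7 (log2 fold change -1.46, SE 0.25, adjusted p = 0.0291). Sprr1a and S100a6 were the called members of 18 tested injury-type epithelial genes, of which 2 were higher and 4 lower at an unadjusted p under 0.05. Mia, Anxa5 and Qdpr fell as well, with log2 fold changes of -1.89, -1.52 and -1.38. S100a6 lost its call without Day 1 culture 2 or 3 or Day 7 culture 5 (adjusted p up to 0.0944), Myl9 without any Day 1 culture (0.128), Sparc without any Day 1 culture, Day 3 culture 3 or Day 7 culture 2 or 4 (0.146), and Mia, Anxa5 and Qdpr without 7 or 8 of the 11 (up to 0.296).

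Cdkn1c, which encodes the cyclin-dependent kinase inhibitor p57, was at 92.2, 164 and 286 CPM on Day 1 and at 17.1, 23.5, 4.11, 48.5 and 13.6 CPM on Day 7. The groups did not overlap, and cells with a count went from 101 of 124 to 53 of 94. The log2 fold change was -3.07 (SE 0.57, adjusted p = 0.0434), beside -2.13 (SE 0.37) in all retained cells. The call was lost without 9 of the 11 cultures (adjusted p up to 0.296). None of the other 5 tested kinase inhibitors was called. Slc2a1, the glucose transporter GLUT1, fell from 128 CPM ± 19.1 (n = 3) to 40.0 CPM ± 14.8 (n = 5) (log2 fold change -1.69, SE 0.30, adjusted p = 0.031), beside -0.94 (SE 0.20) in all retained cells. It was the 1 called gene of 24 glycolysis and hypoxia genes, whose median was 0.03, and the call was lost without 9 of the 11 cultures (up to 0.190).

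Because the rule read only 6 genes, other cell cycle genes show what else it left in. Among the 38 tested of 47 other G2 and mitosis genes, none was called and 7 were higher at an unadjusted p under 0.05, with a median log2 fold change of 0.89 in non-cycling cells and 2.05 in all retained cells. Among 43 of 44 tested S phase genes, none was called and 15 were higher, with medians of 0.98 and 0.74. Hmgb2, a chromatin protein of dividing cells, was at 49.7 to 59.6 CPM on Day 1 and 72.3 to 215 CPM on Day 7 (adjusted p = 0.120). Tubb4b, a β-tubulin, was at 147 to 209 CPM and 62.6 to 316 CPM (0.899), with 4 of the 5 Day 7 cultures below every Day 1 culture. Prim1, the DNA primase subunit, was at 19.9 to 35.6 CPM and 54.4 to 276 CPM (0.125), and Slbp, which binds histone mRNA, at 58.1 to 83.6 CPM and 62.2 to 184 CPM (0.284). The groups of Hmgb2 and Prim1 did not overlap, and those of Tubb4b and Slbp did. So the word non-cycling holds by the rule only. A count in at least 2 of 6 further genes of S phase (Rrm2, Cdc6, Cdc45, Clspn, Exo1 and E2f8) was present in 5 of 124 Day 1 cells and 14 of 94 Day 7 cells. Per culture this was 10.7, 2.94 and 0% on Day 1 and 25.0, 25.0, 12.5, 26.7 and 6.38% on Day 7.

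The 6 genes of the rule are given as a description, since they chose the cells. Mki67 was at 0.117 to 0.605 CPM on Day 1 and 0 to 0.171 CPM on Day 7, and Tpx2 at 0 to 1.25 CPM and 0 CPM. Cdk1 was at 5.61 to 6.64 CPM and 0.664 to 62.0 CPM, Top2a at 0.0593 to 0.332 CPM and 0.166 to 25.5 CPM, Birc5 at 0 to 0.533 CPM and 0 to 6.64 CPM, and Ccnb2 at 0 to 0.296 CPM and 0.0854 to 8.32 CPM.

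The cycle lists and the immediate early list were followed over 5 choices of cells. S phase cells are here the non-cycling cells with a count in at least 2 of the 6 further genes of S phase. Cells with a count in only 1 of these genes stayed in when the S phase cells were left out. Over the 34 S phase genes tested under all 5 choices, the median log2 fold change was 0.71 in all retained cells and 0.84 in non-cycling cells. It was 0.45 without the S phase cells, 0.22 in cells with none of the 6 genes, and 0.14 in cells with none of the 6 and no S phase gene. For 28 G2 and mitosis genes it was 1.91, 0.59, 0.42, 0.07 and 0.21 in the same order. For 20 immediate early genes it was 1.74, 1.92, 1.99, 1.74 and 1.54, with 9, 4, 4, 1 and 0 of them called, and in the last choice the lower quartile was -0.42. The S phase median was thus higher in non-cycling than in all retained cells, and the G2 and mitosis median was not the lowest in the narrowest choice. The choices overlap in their cells and differ in their number, and no test of these differences was made. They were made by counts of cell cycle genes, so the medians of the cycle lists over them are a description only. All 42 genes could be tested without the S phase cells, and 24 of them were called there, Fbln1, Id1, Sprr1a, Lgr5 and Tmsb4x among them, whereas Rarb (adjusted p = 0.0569), Heyl (0.0511), Id3 (0.0512), Aldh1a3 (0.0512), Bmp7 (0.0569), Arc (0.184), Gabrg3 (0.165), Cdkn1c (0.101), Slc2a1 (0.0569) and Nefl (0.140) were among the other 18. Their fold changes kept their direction: without the S phase cells the log2 fold change was 4.89 for Rarb, 4.72 for Heyl, 4.06 for Id3, 2.41 for Aldh1a3, 1.51 for Bmp7, 3.79 for Arc, 8.54 for Gabrg3, -3.03 for Cdkn1c, -1.49 for Slc2a1 and -8.05 for Nefl, beside 4.89, 4.79, 4.12, 2.48, 1.42, 3.63, 9.24, -3.07, -1.69 and -8.99 with them.

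**Figure D3:**
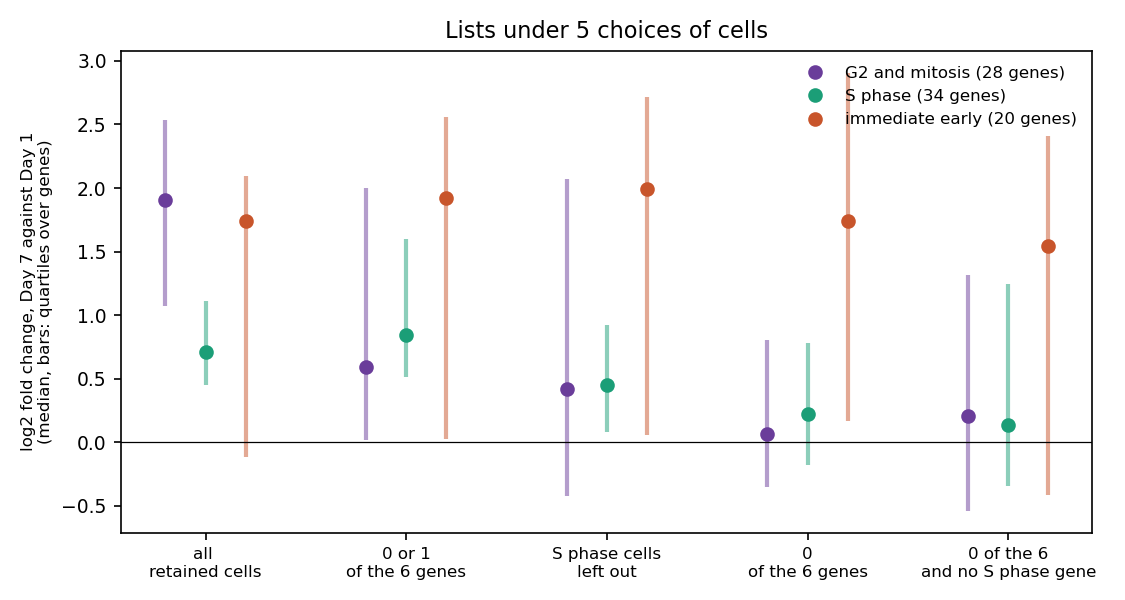
Median log2 fold change, Day 7 against Day 1 (y axis), of 3 gene lists under 5 choices of cells (x axis); vertical bars span the quartiles over genes and the points are not independent. The G2 and mitosis median is 1.91 in all retained cells, 0.07 with none of the 6 genes and 0.21 in the narrowest choice. The immediate early median lies between 1.54 and 1.99 while its called genes go from 9 to 0. Cells were chosen by counts of cell cycle genes, so the cycle medians are a description only.

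Other lists held no called gene. Of the 16 tested genes of the greater epithelial ridge and tectorial membrane, 1 was higher and 5 were lower at an unadjusted p under 0.05. Over all genes tested the shares at that threshold were 4% and 7.25%. Tectb, which encodes β-tectorin, was at 6851, 11734 and 7014 CPM on Day 1 and at 255, 1304, 2294, 1181 and 1768 CPM on Day 7. These groups did not overlap, yet the adjusted p was 0.0562 (log2 fold change -2.65, SE 0.51), and in all retained cells it was 0.00166 (-3.59, SE 0.46). Tecta was at 1763 to 3435 CPM and 1563 to 2515 CPM, with overlapping groups. Among the 13 tested otic regulators, Gata3 was at 292 to 332 CPM on Day 1 and 347 to 876 CPM on Day 7 (adjusted p = 0.156), and Isl1 at 279 to 436 CPM and 115 to 232 CPM (0.124).

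Of 18 hair cell genes 11 were tested and none was called, with 0 higher and 5 lower at an unadjusted p under 0.05. The members with the highest levels were Cib2, a calcium-binding protein of the mechanotransduction complex, and Myo6, an unconventional myosin. Cib2 was at 38.6 to 62.7 CPM on Day 1 and 3.28 to 46.6 CPM on Day 7 and had a count in 92 of 124 and 55 of 94 cells. Myo6 was at 38.7 to 60.8 CPM and 32.1 to 66.5 CPM, with a count in 82 and 45 cells, and the groups of both genes overlapped. The transcription factors Atoh1 and Pou4f3, named after their values were seen, were at 9.01 and 13.3 CPM in Day 1 culture 1, at most 0.723 CPM in the other Day 1 cultures and at 0 in all Day 7 cultures. The 16 G1 cyclin and Myc genes had 3 higher and 1 lower at an unadjusted p under 0.05. Ccnd1, cyclin D1, was at 345 to 657 CPM and 432 to 1328 CPM, and Cdk4, its kinase partner, at 298 to 428 CPM and 382 to 804 CPM, and the groups of both overlapped. For the 20 growth factor receptor and ERK feedback genes the counts were 1 and 4, and for the 19 integrated stress response genes 0 and 2. The most abundant members of these lists overlapped between the days. Etv5, a factor induced by ERK, was at 101 to 171 CPM and 39.5 to 305 CPM, and Dusp6, an ERK phosphatase, at 68.2 to 199 CPM and 80.2 to 177 CPM. The serine synthesis enzymes Psat1 and Phgdh were at 222 to 275 CPM and 146 to 479 CPM, and at 245 to 312 CPM and 235 to 412 CPM. Of the 84 tested ribosomal protein genes 13 were higher and 0 lower (median 0.24), and of the 88 nuclear respiratory chain genes 2 were higher and 5 lower (median -0.18). Over all genes tested, 4% were higher and 7.25% lower at that threshold. Rpl4 and Rplp0 were at 866 to 1071 CPM and 791 to 1181 CPM on Day 1 and at 1225 to 2252 CPM and 1256 to 1754 CPM on Day 7, without overlap (adjusted p = 0.162 and 0.225). The ATP synthase subunits Atp5a1 and Atp5b were at 690 to 803 CPM and 1108 to 1648 CPM on Day 1 and at 906 to 1360 CPM and 1513 to 1740 CPM on Day 7 (0.250 and 0.893).

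The 27 cholesterol and fatty acid synthesis genes had a median of -0.40 in non-cycling cells and 0.23 in all retained cells. None was called in non-cycling cells, and 7 were lower and 0 higher at an unadjusted p under 0.05. Fdps, farnesyl diphosphate synthase, was at 270, 447 and 319 CPM on Day 1 and at 232, 293, 148, 147 and 225 CPM on Day 7 (log2 fold change -0.72, SE 0.29, adjusted p = 0.326). Its groups overlapped, as did those of the desaturase Scd2 (240 to 347 CPM and 175 to 334 CPM).

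**Figure D4:**
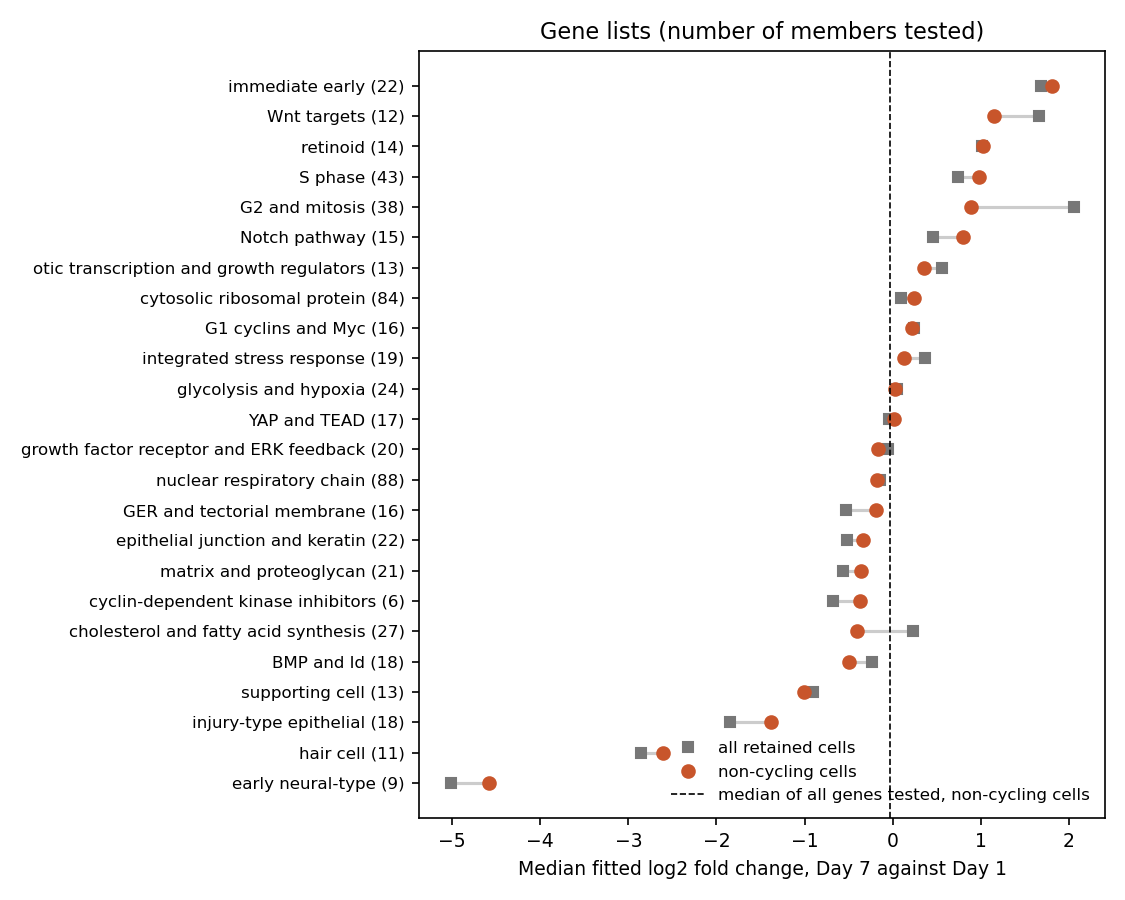
Median fitted log2 fold change, Day 7 against Day 1 (x axis), of gene lists (y axis, members tested in brackets; the 6 rule genes and the markers of other cell types are not drawn) in non-cycling cells (orange) and all retained cells (grey); the dashed line is the median of all genes tested, -0.03. The G2 and mitosis list is at 0.89 and 2.05, and the cholesterol list at -0.40 and 0.23.

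Whether the change from Day 1 to Day 7 differed between non-cycling cells and the other cells of the same cultures was tested as a class by day term, with the culture as a block. Of 16487 genes, 1 was called (0.00607%), and 906 had an unadjusted p under 0.05. This gene was Tuba1a, an α-tubulin whose sequence is so close to that of other tubulin genes that the split of reads between them is uncertain. In this fit it fell in non-cycling cells from 2189 CPM ± 257 (n = 3) to 809 CPM ± 145 (n = 5), while in cycling cells it was at 1423 CPM ± 91.7 and 1322 CPM ± 231. The log2 change of cycling cells was 1.33 higher than that of non-cycling cells (SE 0.16, adjusted p = 0.033). In the comparison of non-cycling cells alone Tuba1a was at 1878, 2397 and 2206 CPM on Day 1 and at 640, 1010, 669, 831 and 824 CPM on Day 7 (log2 fold change -1.44, SE 0.20, adjusted p = 0.00956), beside -0.65 (SE 0.17) in all retained cells. That call was lost without Day 1 culture 2 or 3 (up to 0.0719).

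The class by day terms of Fdps (1.54, SE 0.24, adjusted p = 0.115) and Sparc (-1.74, SE 0.29, adjusted p = 0.155) did not pass. In cycling cells Fdps was at 247 CPM ± 70.7 on Day 1 and 432 CPM ± 113 on Day 7, and Sparc at 2526 CPM ± 264 and 280 CPM ± 94.6. Both were plotted because they are near the top of the ranking by p.

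**Figure D5:**
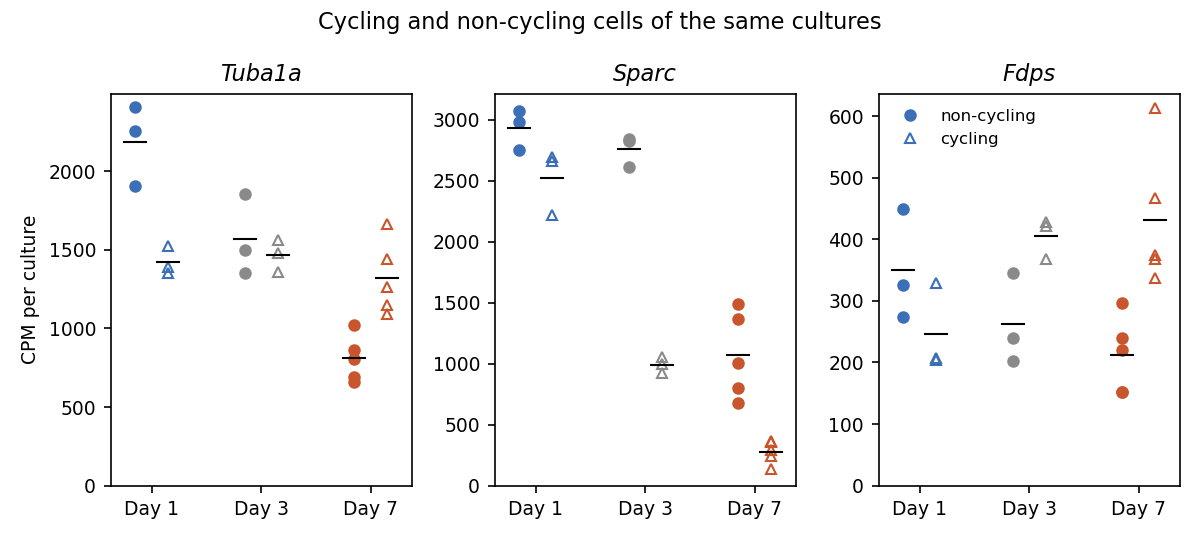
CPM per culture (y axis, from 0) of 3 genes in non-cycling (filled circles) and cycling cells (open triangles) of the same cultures by day; black lines are means. Tuba1a in non-cycling cells goes from 2189 to 809 CPM and stays between 1322 and 1467 CPM on average in cycling cells, and it alone passed the test of the difference.

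The file split was checked for the same genes. With the file as a term in the fit, 37 genes were called in all, and 24 of the 42 were among them. The second file alone, with 2 Day 1 cultures and 1 Day 7 culture, called 24 genes, of which 13 were among the 42. The first file alone, with 1 Day 1 culture and 4 Day 7 cultures, called 0 by edgeR's quasi-likelihood test, also with every one of the 42 tested, and 597 of 15735 genes had an unadjusted p under 0.05 there. In these single-file fits the lone culture of a day is assumed to vary like the other groups. Fbln1 was called with the file term (adjusted p = 0.00347) and in the second file (0.00161), and so were Id1, Arc, Cyr61, Sprr1a, Ecel1, Nqo1, Lgals1 and Cldn1. Rarb and Heyl were called in neither, with log2 fold changes of 4.84 and 4.93 with the file term (adjusted p = 0.0922 and 0.062).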

How the data were processed

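SmartSeq2 reads of single cells were deposited by the authors in the unit of expected counts (estimated reads per gene, not normalized) in 2 tables. The submitters' processing notes name STAR 2.5.3a, RSEM 1.3.0 and GRCm38 (mm10), and the annotation release is not given in the sources used here. Estimated counts split reads between near-identical genes, and 10.6% of the deposited values above 0 were not whole. Here counts were rounded. Cells with at least 50000 reads on genes, 1500 genes with a read and at most 20% mitochondrial reads were retained, non-cycling cells were chosen by the 6-gene rule, and their counts were summed per culture. Doublets were not called, since cells were picked by hand. Spike-in and transgene rows stayed out of the totals.

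Day 7 was compared with Day 1 with edgeR 4.0.16 in R 4.3.3 (TMM scaling, low genes removed with filterByExpr, quasi-likelihood test, all 11 cultures in 1 fit with a shared estimate of the spread). A gene was called at a Benjamini-Hochberg adjusted p under 0.05 over all genes tested, and "rose" and "fell" are used of called genes. The SE of a log2 fold change was taken as its absolute value over the square root of the F statistic of the test. CPM is on the TMM-scaled total, and its level is not per gene length. Intervals on ratios of reads cover the counting error of reads only. No molecular identifiers mark PCR copies, so these intervals do not cover the error in the number of molecules. The text names from a ranking by log2 fold change 10 called genes in each direction (no overlap between cultures, at least 20 CPM and a count in at least 20% of the cells of the higher day, no predicted genes), up to 4 called members of each of 32 lists or else 2 with the highest CPM, the 6 rule genes, 4 preset genes (Sox2, Fgfr3, Epcam and Cdh1), and the genes of the class by day term. Other called genes and those marked so were added. Members and lists were chosen with earlier results of these data known. Alternatives were DESeq2 1.42.0, limma 3.58.1 (log2 of CPM + 1), and other filters, scalings, choices of cells, files and cultures. The fit of Day 7 against Day 1 was tested on simulated counts.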

Additional observations from a re-analysis of the deposited data

Results flagged for a closer look

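Among 45 values of the 5 Day 7 cultures looked at, 10 had 1 culture far from the others by Dixon's criterion (gap over range above 0.71). Chance gives about 1 in 20 for normally distributed values, which counts near 0 are not. Day 7 culture 5 stood apart in its 47 non-cycling cells and in its 44392498 summed reads, and in Mia, at 634 CPM against 213 to 321 CPM in the other 4. Rarb was far above the others in culture 3, at 127 CPM. The remaining 6 rest on genes with 1 or a few reads on Day 7. Per gene 1 culture was above 0, at 0.205 CPM for Sprr1a and Nefl, 0.0892 CPM for Nrip3, and 0.0836 CPM for Sv2c, Anks1b and Srpx. The other 4 cultures were at 0, where any value above 0 in 1 culture meets the criterion. These 6 flags are thus no sign of an outlying culture. A difference between cell classes in the change from Day 1 to Day 7 passed its test for Tuba1a, at 1.33 on the log2 scale. The causes were not tested.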

How the results depend on the processing

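The count of 42 called genes moved with most choices. It was 450 with DESeq2, 149 with limma on mean CPM per cell, 105 with cells that had at most 2 of the 6 genes, 96 with no filter on low counts, 93 with sums of thinned cells, 27 without S phase cells, 23 with only the Day 1 and Day 7 cultures in the fit, 9 with cells that had none of the 6 genes, and, added after seeing the data, 3 with cells that also had no S phase gene. The second file alone gave 24 and the first file alone 0. Leaving out 1 culture gave 11 (without Day 1 culture 3) to 49 (without Day 7 culture 3), with 18 without Day 1 culture 1, 16 without Day 1 culture 2, 25 without Day 7 culture 2 and 26 without Day 7 culture 5. Of the 42 genes, 9 kept their call without each culture, 42 were called by DESeq2 and 39 by limma. The class by day term called 171 genes with DESeq2, 2 with a stricter filter and 8 with cycling set at 3 or more of the 6 genes. Deviations from the day mean had correlations of 0.0366, 0.0287 and 0.0156 between same-numbered cultures of Day 1 and Day 7. Differently numbered cultures ran from -0.0368 to 0.0417. So few cultures cannot settle whether the numbers pair them, and a replicate block gave 25 calls.

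Directions turned only in named genes that were not called. Their log2 fold changes were, with the replicate block, -0.22 for Cdk1, 0.11 for Dusp6, 0.035 for Myo6 and -0.33 for Fgfr3. In the first file they were 0.29 for Dusp6, -0.028 for Lum, 0.17 for Erbb3 and 5.92 for Tek, and in the second 0.47 for Tecta, 0.44 for Erbb3 and -7.41 for Fgfr3. With the file as a term Fgfr3 was at -0.42, with limma Dusp6 at 0.14, and without S phase cells Myo6 at 0.23. In cells with none of the 6 and no S phase gene they were 0.23 for Etv5, 0.34 for Dusp6, -0.0058 for Phgdh, -0.066 for Atp5b and -7.48 for Fgfr3, and without cultures under 10 cells 0.15 for Erbb3. With 1 culture left out, the values ran from -0.42 to 0.15 for Tecta, -0.36 to 0.44 for Dusp6, -0.31 to 0.054 for Scd2, -0.31 to 0.016 for Myo6, -0.27 to 0.23 for Erbb3, -7.86 to 4.96 for Tek and -0.24 to 1.87 for Fgfr3. Causes were not tested. Day 7 cultures 1 and 3 rest on 8 cells each, which limits what the summed counts can show, and genes with a handful of reads on 1 day have fitted fold changes that are not bounds.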
